A study of Mus musculus with 14 samples.

Results

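The genes of the proteasome, the complex that degrades ubiquitin-tagged proteins, were described in the liver of male mice fed a Western diet without or with erythrodiol, a triterpene alcohol of the olive. Members were chosen by symbol, as all genes named Psma to Psmg with a number, and numbered 50 of the 17552 genes in the deposited table. Of these, 48 had at least 100 counts in the 2 groups together. Psmb11, which encodes a thymus subunit, and Psmc3ip, whose product is no proteasome subunit, stayed below that level.

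All mice were male, Apoe-deficient and of C57BL/6 background by the labels (C57BL/6J in the methods of the study), so that both groups lacked apolipoprotein E, and the labels give an age of 8 weeks. The control group received the Western diet alone and the erythrodiol group the same diet with erythrodiol at 10 mg/kg. The labels give 8 weeks of feeding, whereas the methods of the study give a longer period. Each group comprised 7 RNA pools of a few livers each, sequenced as 7 libraries.

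The 26S proteasome joins a 20S core particle to a 19S regulatory particle. The core is a barrel of outer alpha rings, which gate the entry, and inner beta rings, which carry the protease sites. The regulatory particle binds ubiquitin chains, removes them and unfolds the substrate with a ring of ATPases. In cells exposed to interferon gamma, the catalytic beta subunits are replaced by the immune subunits Psmb8, Psmb9 and Psmb10, which alter the peptides offered to class I molecules. When proteasomes are inhibited, the transcription factor encoded by Nfe2l1 raises the genes of most subunits through antioxidant response elements.

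Promoter sequences are shown for the elements through which these factors are known to act. RefSeq promoters on GRCm38.p6, from 250 bases before to 50 bases after the start of a gene, were matched to 42 of the 50 members with 45 promoters. Psma8, Psmb1, Psmb2, Psmb7, Psmc3, Psmd3, Psmd7 and Psmg2 had no entry. The antioxidant core TGACNNNGC, searched on both strands, was found in 6 of the 45 promoters (13.3%), against 12.4% of all 32851 promoters. In the following windows of 27 bases, written 5′ to 3′ on the strand of the gene, capitals mark the match.
Psmb5, chr14:54618025-54618051, minus strand: gtgaagttgTGACGTCGCggcgttgcc
Psmb6, chr11:70525339-70525365, plus strand: taaagagagTGACGGAGCgctttacga
Psmc6, chr14:45329588-45329614, plus strand: cagccagtaGCTAAGTCAggcattgct
Psmd12, chr11:107479278-107479304, plus strand: tctGCTGTGTCAcatttgcccccctca
Psmd9, chr5:123228150-123228176, plus strand: tctagccggTGACCCCGCccacttcca
Psme4, chr11:30771759-30771785, plus strand: gctgcggctGCAGCGTCAccagaagag

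The gamma-activated site TTCNNNGAA was found in the promoters of Psmb8, Psmd2 and Psmg1, that is in 6.67% of member promoters and in 8.30% of all promoters. The interferon-stimulated response element, searched as TTTC followed after any 2 bases by TTTC, was found in 11.1% of member promoters, those of Psmb3, Psmd4, Psmd9, Psme1 and Psmg4, and in 3.44% of all. Both were searched on both strands, and the examples of Psmb8, an immune subunit, and Psme1, an interferon-induced activator, have capitals at the match. The CCAAT box was found in 33.3% of member promoters and 37.4% of all promoters, and each of these is a match of letters only.
Psmb8, chr17:34198089-34198115, plus strand: cctccgctgTTCCCAGAAgatgccccc
Psme1, chr14:55578495-55578521, plus strand: agctgtgcTTTCGCTTTCccttcccgc

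The deposited expected counts are sums over the 7 libraries of a group, so each gene had a single value per diet and no replicate error could be computed. Counts amounted to 122889032 for the control and 124686047 for the erythrodiol group. Libraries held from 34856340 to 55244294 clean reads in the control and from 47669656 to 48058606 in the erythrodiol group. Single libraries therefore gave from 9.12% to 17.3% of the gene-mapped read pairs of the control sum and from 13.9% to 14.6% of the erythrodiol sum. The control library with the smallest share, replicate 3, had 64.3% of its reads mapped to genes against at least 74.4% in the other control libraries, and the sums cannot be recomputed without it. Levels are RPKM, that is counts per kilobase of gene length per 1000000 counts of the group. Hepatocyte markers summed to 65653 RPKM in the control and 65039 RPKM with erythrodiol. Alb alone held 38801 RPKM of the control sum and 37341 RPKM of the erythrodiol sum, so these sums mostly follow that gene. A log2 ratio below is that of erythrodiol over control after scaling each group by its total count, with 0.5 counts added. Its 95% exact binomial interval covers counting error only and not the differences between mice, pools or libraries.

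Transcripts of the 20S core were lower in the erythrodiol group. Those of the 19S particle within the symbol rule, which leaves out Sem1 and Adrm1, stood near equality as a sum. Among the 48 members with at least 100 counts, 16 were lower by at least 1.2-fold and 2 were higher by that limit. The same limit was passed downwards by 11.4% and upwards by 33.7% of the 13291 genes with at least 100 counts. A ratio below 1 was found in 29 of the 48 members and in 28.8% of those genes. By at least 1.5-fold, 4 members were lower, Psmb3, Psma4, Psmb7 and Psma8, and 0 were higher, against 3.13% and 2.54% of those genes. The median log2 ratio was -0.12 in the members and 0.16 over all these genes. Over 7 ways of scaling, 23 members stayed below 0, 9 stayed above 0 and 16 changed sign. Centring on the median of all genes, the upper quartile and totals without the 100 most abundant genes each lower all log2 ratios by a constant. A member below 0 by the group totals therefore stays below 0 under these. The same counts were not made over all genes.

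**Figure D1:**
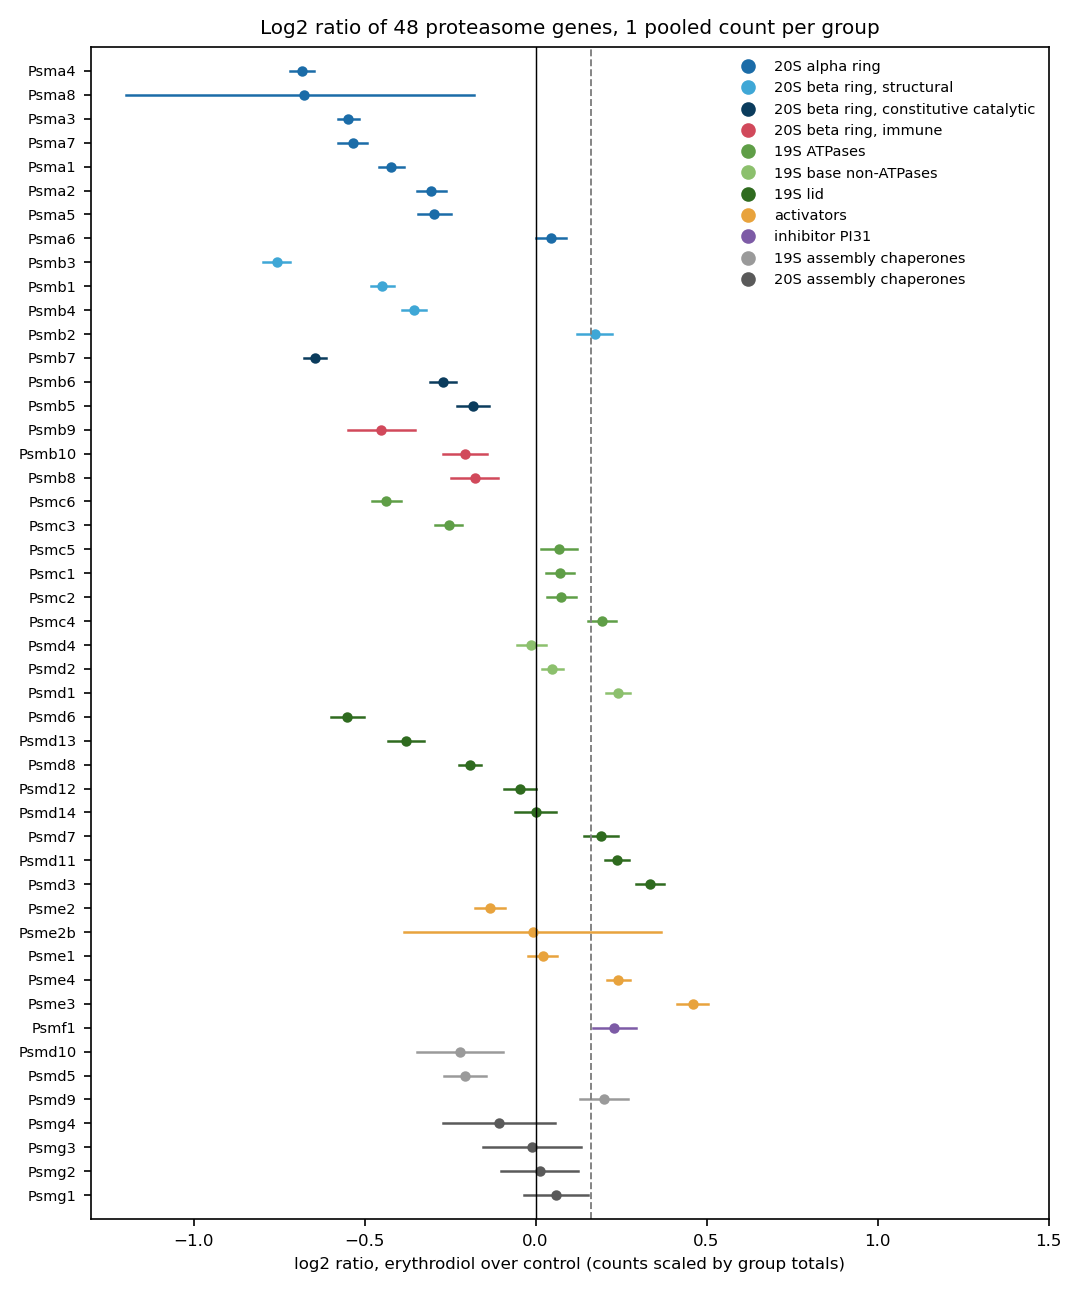
Log2 ratio of erythrodiol over control (horizontal axis) for the 48 proteasome genes with at least 100 counts, 1 point per gene, coloured by the part of the complex, with bars for the 95% counting interval. The solid line marks equality and the dashed line the median of all genes, 0.16, and most blue points of the 20S core lie left of the solid line, down to -0.76 for Psmb3.

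The alpha ring showed lower counts for all of its common subunits but Psma6. Psma4, a ring subunit on chromosome 9 from 54950781 to 54958034, had 16969 control counts and 10728 erythrodiol counts, a log2 ratio of -0.68 (interval -0.72 to -0.65). Psma3, whose counts were not whole because RSEM shared some reads, had 19723 and 13693 counts (log2 ratio -0.55). Psma7 went from 11469 to 8031 counts (log2 ratio -0.54).

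Less distant from equality were Psma1, with log2 ratio -0.42, Psma2, with -0.30, and Psma5, with -0.30 and the lowest level of the common alpha subunits. Psma6, on chromosome 12, had 8434 control counts and 8828 erythrodiol counts, at a log2 ratio of 0.04, which was below 0 in 3 of the 7 scalings and ranged from -0.13 to 0.20 over them. Psma8, the alpha subunit of the testis, had only 87 and 55 counts, and its interval was wide, from -1.20 to -0.18. With Psma8 counted, 7 of the 8 alpha genes were below 0.

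The structural beta subunits, which hold the inner rings without cutting peptides, held the lowest log2 ratio of all members. Psmb3, on chromosome 11 from 97703434 to 97713500, had 13375 control counts and 8030 erythrodiol counts, a log2 ratio of -0.76 (interval -0.80 to -0.72) or 0.592-fold. Psmb1 had 16153 and 12015 counts, respectively (log2 ratio -0.45). Psmb4 had 14135 and 11215 counts (log2 ratio -0.35).

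Psmb2 went the other way. Its counts were 5952 and 6806, respectively, a log2 ratio of 0.17 (interval 0.12 to 0.22), which ranged from 0.002 to 0.48 over the 7 scalings. Psmb2 and Psmb3 occupy neighbouring lengths, 859 and 731 bases, and their log2 ratios were at opposite ends of the core. Among genes of the same length class, Psmb2 lay at the percentile 88.9 and Psmb3 at 14.8.

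The 3 constitutive catalytic subunits were all lower with erythrodiol by the group totals. Psmb7, which carries the trypsin-like site, had 19724 control counts and 12797 erythrodiol counts, a log2 ratio of -0.65 (interval -0.68 to -0.61). Psmb6, with the caspase-like site, had 11661 and 9806 counts (log2 ratio -0.27). Psmb5, with the chymotrypsin-like site, had 8028 and 7172 counts (log2 ratio -0.18), and relative to genes of like length its value was 0.12.

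Of the constitutive 20S subunits, 14 genes without Psma8, 11 were lower by at least 1.2-fold and none was higher by that limit, against the 11.4% and 33.7% of all genes. Their median log2 ratio was -0.39, and it lay between -0.56 and -0.23 under the other scalings. Summed per kilobase, these 14 genes gave 1418 RPKM in the control against 1059 with erythrodiol, at a ratio of 0.747. The alpha subunits including Psma8 and the 7 constitutive beta subunits gave that same ratio of 0.747 each. In RNA of whole liver, fewer cells of a type and less RNA per cell cannot be told apart.

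The immune subunits were set against their constitutive counterparts to compare both kinds of core. Psmb9, on chromosome 17 from 34182030 to 34187330, had 1970 control counts and 1462 erythrodiol counts, a log2 ratio of -0.45 (interval -0.55 to -0.35). Psmb8, its neighbour on chromosome 17 from 34198195 to 34201454, had 3665 and 3287 counts (log2 ratio -0.18). Psmb10, on chromosome 8, had 4204 and 3699 counts (log2 ratio -0.21). All 3 were below 0 under each of the 7 scalings, with a median of -0.21 by the group totals. Some of these scalings only lower all ratios by a constant.

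The share of the immune subunit in its pair differed in direction between the 3 pairs. Psmb8 made up 31.3% of the counts of Psmb8 and Psmb5 together in the control (exact binomial interval 30.5% to 32.2%) and 31.4% with erythrodiol (30.5% to 32.3%). Psmb9 made up 14.5% of its pair with Psmb6 in the control (13.9% to 15.1%) and 13.0% with erythrodiol (12.4% to 13.6%). Psmb10 made up 17.6% of its pair with Psmb7 in the control (17.1% to 18.1%) and 22.4% with erythrodiol (21.8% to 23.1%). With erythrodiol the share of Psmb10 was thus higher and that of Psmb9 lower, beyond counting error in these 2 sums of libraries, and that of Psmb8 lay within it.

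The difference in log2 ratio, immune minus constitutive, was 0.01 for the Psmb8 pair (counting interval -0.08 to 0.09), -0.18 for the Psmb9 pair (-0.29 to -0.08) and 0.44 for the Psmb10 pair (0.37 to 0.51). Between the medians of the 3 immune and the 3 constitutive catalytic genes it was 0.07. Relative to genes of like length the pairs differed by -0.28, 0.06 and 0.39 in the same order, so that the Psmb8 and Psmb9 pairs changed sign, the Psmb8 pair by the wider step, and the Psmb10 pair kept most of its difference. Per kilobase, the constitutive subunit exceeded the immune subunit in every pair. Psmb5 stood at 3.08 times Psmb8 in the control and 3.06 times with erythrodiol, Psmb6 at 4.99 and 5.65 times Psmb9, and Psmb7 at 6.40 and 4.72 times Psmb10.

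**Figure D2:**
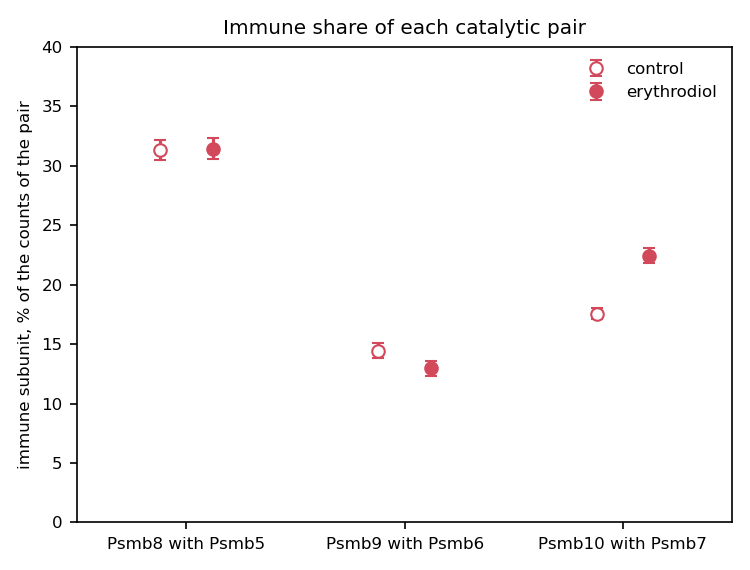
Share of the immune subunit in the counts of each catalytic pair (vertical axis, percent), with open points for the control and filled points for the erythrodiol group, and bars for the 95% exact binomial interval of 1 pooled count. The pair of Psmb10 and Psmb7 goes from 17.6% to 22.4%, whereas that of Psmb8 and Psmb5 stays at 31.3% and 31.4%.

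Markers of some other liver cells differed between the groups as well. Of 12 markers of Kupffer cells and other macrophages, cells rich in immune subunits, 10 were lower by at least 1.2-fold, none was higher by that limit, and their summed level went from 1127 to 762 RPKM. By the group totals, that limit was passed downwards by 11.4% and upwards by 33.7% of all genes. Of 15 leukocyte markers, 6 were lower by that limit and none higher, with a summed level of 77.7 and 60.6. The log2 ratios of the macrophage list ran from -1.07 for Marco, a scavenger receptor, to 0.04 for Cd68, a lysosomal protein. The lowest log2 ratio of the leukocyte list was -1.19 for S100a8, a protein of neutrophils. Of 8 sinusoidal endothelial markers, 2 were higher and 0 lower by 1.2-fold, from -0.26 for Clec4g to 0.33 for Kdr, and of 8 stellate cell markers none passed it, from -0.17 for Dcn to 0.13 for Acta2. Relative to genes of like length, 4 of the 8 stellate cell markers and none of the endothelial ones were lower by 1.2-fold and none of either list was higher, against 17.6% and 9.57% of all genes. By the same measure, 11 of the 12 macrophage and 9 of the 15 leukocyte markers were lower, and 0 and 1 higher. Of the 10 hepatocyte markers, 0 were lower and 1 was higher by it. By the group totals, hepatocyte markers ran from -0.40 for Fabp1 to 0.45 for Ass1. Of the 10, 4 were higher and 1 was lower by 1.2-fold, near the shares of all genes. Their median log2 ratio was 0.20, against 0.16 over all genes with at least 100 counts. No marker of these lists was at 0 in either group, and the part of other cells in the lower counts of the immune subunits was not tested.

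The 10 genes listed as interferon and class I neighbours of the immune subunits had a median log2 ratio of 0.05, with 1 higher and 0 lower by 1.2-fold. Irf1, the factor that acts on several immune subunit genes, had the lowest log2 ratio of that list, -0.26. The class I transactivator Nlrc5 had the highest, 0.27.

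Genes of the 19S regulatory particle lay on both sides of equality. Of its 17 subunits within the symbol rule, which leaves out Sem1 and Adrm1, 3 were lower and 1 was higher by at least 1.2-fold, against 11.4% and 33.7% of all genes, and the median log2 ratio was 0.05, which lay below 0 in 5 of the 6 other scalings, down to -0.12. Their summed level was 773 RPKM in the control against 755 with erythrodiol, at a ratio of 0.977. Not in this sum, Sem1 went from 113 to 50.9 RPKM and Adrm1 from 45.6 to 57.3 RPKM.

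Among the 6 ATPases, 4 had a ratio above 1 and 2 a ratio below 1, near the 28.8% of all genes with a ratio below 1. Psmc6, the lowest, had 10434 control counts and 7822 erythrodiol counts, a log2 ratio of -0.44. Psmc3, the other below 1, had 11711 and 9963 counts (log2 ratio -0.25). Psmc4, highest in ratio and in mean level over both groups but below Psmc3 and Psmc6 in the control level, had 9114 and 10573 counts (log2 ratio 0.19). Psmc5 had the lowest level of the ring, 36.7 RPKM in the control and 38.5 with erythrodiol. The ATPases form 1 ring with 1 copy of each subunit in the assembled particle, and their transcripts diverged between the groups by more than counting error.

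Within the symbol rule, 3 base subunits are no ATPases. Psmd1, a scaffold of the base and the least abundant of the 3, had 12881 control counts and 15443 erythrodiol counts (log2 ratio 0.24). Psmd2, the other large scaffold, had 17661 and 18542 counts (log2 ratio 0.05). Psmd4, a receptor for ubiquitin chains, had 8979 and 9034 counts (log2 ratio -0.01), the closest to equality of the base. None of the 3 passed 1.2-fold.

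The lid, which holds the deubiquitinase of the particle, spread over the widest range of the 19S. Psmd6, on chromosome 14, had 8271 control counts and 5730 erythrodiol counts, a log2 ratio of -0.55 (interval -0.60 to -0.50). Psmd3, on chromosome 11 from 98682554 to 98695978, had 8672 and 11094 counts, a log2 ratio of 0.33 (interval 0.29 to 0.38). Psmd14, the deubiquitinase itself and the least abundant of the lid, had 4517 and 4585 counts (log2 ratio 0.00). Subunits of 1 lid were therefore found on both sides of equality, beyond counting error.

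Of the 8 lid genes within the symbol rule, Psmd8 had the highest level, 89.7 RPKM in the control and 78.5 with erythrodiol. Sem1, a lid gene outside that rule, stood at 113 and 50.9 RPKM. Psmd13, with Psmd6 the only one of the 8 lower by at least 1.2-fold, had 6681 control counts and 5209 erythrodiol counts (log2 ratio -0.38). Psmd7 and Psmd11 stood at log2 ratios of 0.19 and 0.24, and Psmd12 at -0.05. Over all 17 genes of the 19S, 6 stayed below 0 and 5 above 0 under each of the 7 scalings, and 6 changed sign.

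**Figure D3:**
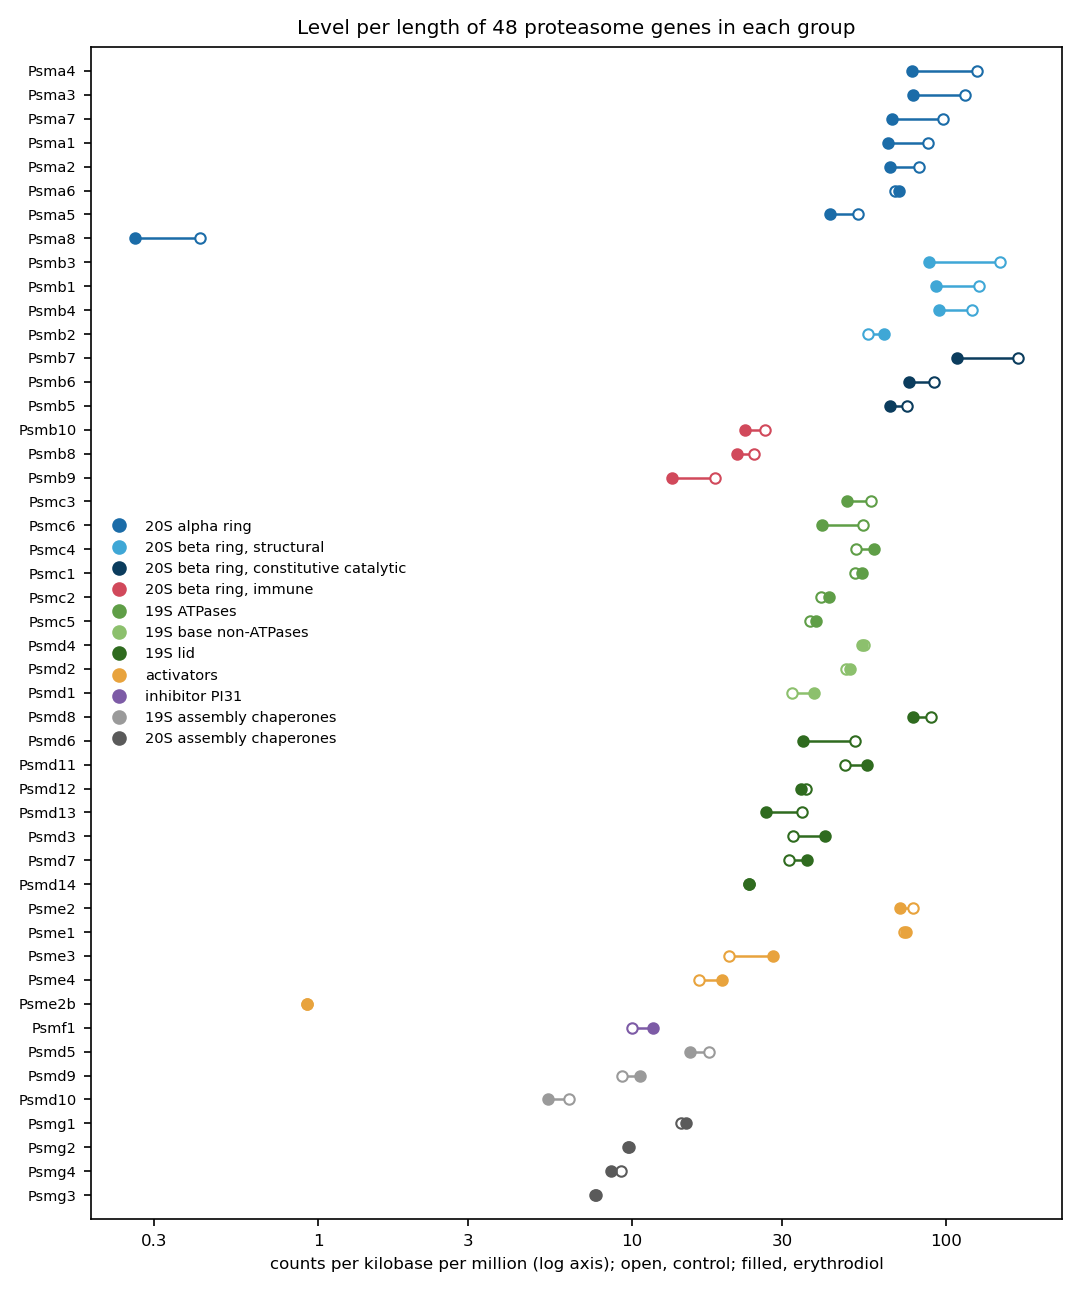
Level of the 48 genes in RPKM (counts per kilobase per 1000000 counts) (horizontal log axis), with open circles for the control and filled circles for the erythrodiol group, 1 pooled value each, coloured by the part of the complex. Most genes of the 20S stand highest, up to 169 for Psmb7 in the control, the immune genes between 13.4 and 26.5, and the filled circles of the core lie left of the open ones apart from Psma6 and Psmb2.

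Of the activators that cap the core in place of the 19S, the nuclear forms had the higher ratios by the group totals. Psme3, the nuclear activator on chromosome 11 from 101316213 to 101323537, had 6542 control counts and 9123 erythrodiol counts. Its log2 ratio of 0.46 (interval 0.41 to 0.50) was the highest of all members, and it lay between 0.26 and 0.46 over the 7 scalings. Psme4, which encodes another nuclear activator and is the longest member with 6451 bases, had 12932 and 15509 counts (log2 ratio 0.24), a value of -0.07 relative to genes of like length.

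Psme1 and Psme2 encode the partners of the interferon-induced activator. Psme1 had 8841 control counts and 9102 erythrodiol counts (log2 ratio 0.02). Psme2 had 8717 and 8059 counts (log2 ratio -0.13). Psme2b, a close copy of Psme2 on chromosome 11, had 121 and 122 counts, and neither it nor Psme2 had whole counts, so reads may be split between them.

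Psmf1, an inhibitor of the core, had 3838 control counts and 4568 erythrodiol counts, a log2 ratio of 0.23 that was 0.03 relative to genes of like length. The 4 chaperones of the core named Psmg stood close to equality, in contrast to most core subunits. Pomp, a core chaperone outside the symbol rule, had a log2 ratio of -0.24, and 0.07 relative to genes of like length. Psmg1 had 1783 and 1886 counts (log2 ratio 0.06), Psmg2 had 1259 and 1288 (0.01), Psmg3 had 792 and 798 (-0.01), and Psmg4 had 9.18 and 8.53 RPKM (-0.11). The summed level of these 4 was 40.8 RPKM in both groups. All 4 lay above the median of genes of like length, by 0.08 to 0.29.

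The chaperones of the 19S were mixed. Psmd5 had 4445 control counts and 3909 erythrodiol counts (log2 ratio -0.21), Psmd10 had 1116 and 972 (-0.22), and Psmd9 had 2965 and 3455 (0.20). None passed 1.2-fold. Below the minimum of 100 counts, Psmc3ip, whose product acts in meiotic recombination, had 49 and 42 counts, and Psmb11 had 14.4 and 15.4.

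Gene length moved with the log2 ratio over the whole table, and core subunits are short. The median length was 980 bases in the 14 constitutive 20S genes, 1564 in the 19S and 2856 over all genes with at least 100 counts. Over these 13291 genes Pearson's r between log2 length and log2 ratio was 0.44 and Spearman's rho 0.43, and over the 48 members they were 0.49 and 0.46. Genes are no independent replicates, and all values share the same 2 sums of libraries. Within the 20S genes the relation was not seen (r -0.10, rho -0.10, n = 14), and in the 19S genes r was 0.46 (rho 0.44, n = 17).

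Each member was therefore set against the median of its length class, 1 of 20 classes of equal size. Relative to that median, 15 of the 48 members were lower by at least 1.2-fold and 3 were higher, where 17.6% and 9.57% of all genes were. The median of the members was -0.09, that of the constitutive 20S genes -0.34, that of the immune genes -0.16 and that of the 19S genes 0.004. Below the median of like length stood 26 of the 48 members, against 50% of all genes. Psmb2, Psme3 and Psmg3 were the members higher by that limit.

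In the lowest 25.1% of genes, taken within each length class, were 9 of the 14 constitutive 20S genes, 5 of the 17 genes of the 19S and 0 of the 3 immune genes. Core and regulatory genes of one length could be set side by side only in part. Between 1200 and 1400 bases, 3 constitutive 20S genes had log2 ratios from -0.55 to -0.30, and 3 genes of the 19S from -0.55 to 0.07. Between 900 and 1100 bases, 12 members had a median of -0.20, against -0.11 for 441 genes of that length. Between 1500 and 1800 bases, 10 members, all of the 19S but Psma8, had a median of -0.12, against 0.06 for 1006 genes.

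**Figure D4:**
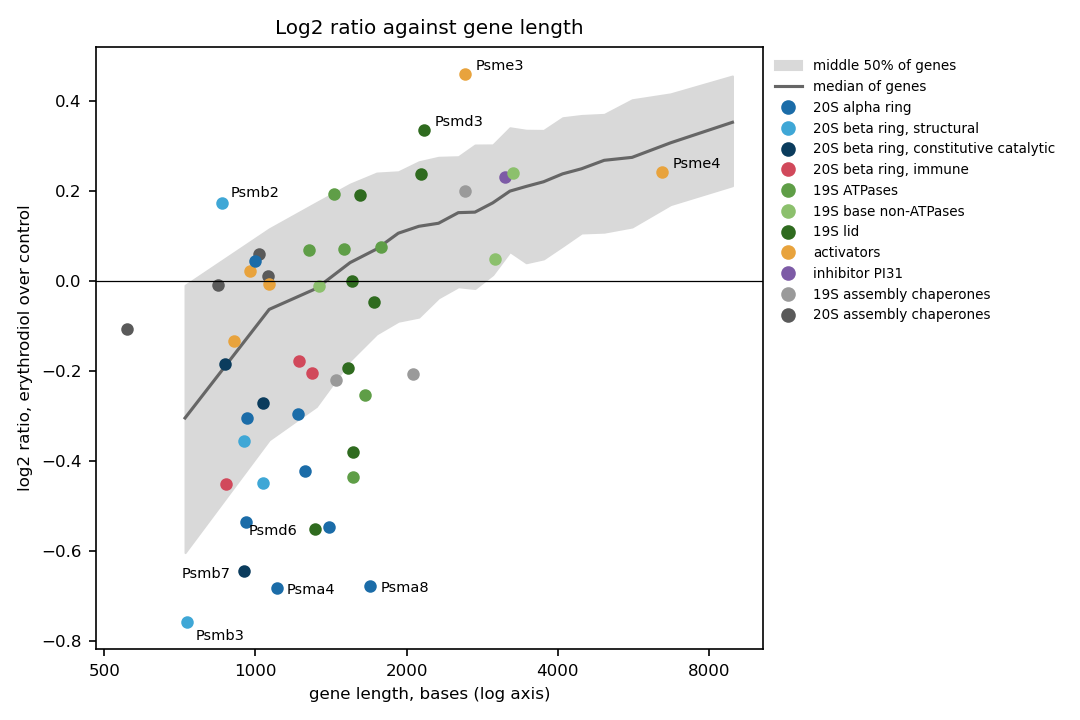
Log2 ratio of erythrodiol over control (vertical axis) against gene length in bases (horizontal log axis) for the 48 members, with the line for the median and the grey band for the middle 50% of 13291 genes in 20 length classes. Of the 14 constitutive core genes, 9 are among the lowest 25.1% of genes within their length class. Psme3 at 0.46, Psmd3 at 0.33 and Psmb2 at 0.17 lie above the band, which itself is higher for longer genes.

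Levels of both particles were compared per kilobase. The mean level of the 14 core genes was 101 RPKM in the control and 75.7 with erythrodiol, that of the 17 regulatory genes 45.5 and 44.4. The ratio of the means, 20S over 19S without Sem1 and Adrm1, was 2.23 in the control and 1.70 with erythrodiol. All 50 members together took 0.331% of the counts of the control and 0.297% of those of the erythrodiol group. Psmb7, Psmb3, Psmb1, Psmb4 and Psma4 held the highest levels over both groups, and Psmb11, Psma8 and Psmc3ip the lowest.

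Proteins that work with the proteasome but lie outside the symbol rule were counted apart. Of 16 such genes, 6 were higher and 1 was lower by at least 1.2-fold, near the 33.7% and 11.4% of all genes. Their median log2 ratio was 0.20, against 0.01 relative to genes of like length. Adrm1, a ubiquitin receptor of the 19S, had 8047 control counts and 10255 erythrodiol counts (log2 ratio 0.33). Sem1, the smallest subunit of the lid with 491 bases, had 6828 and 3118 counts, and its log2 ratio of -1.15 was the lowest of the list. Ubqln4, which encodes a shuttle for ubiquitinated proteins, had the highest, 0.48. Pomp, the chaperone that matures the core, had 10365 and 8927 counts (log2 ratio -0.24), and 0.07 relative to genes of like length.

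Genes of ubiquitin and of the control of subunit genes numbered 9, of which 5 were higher and 1 was lower by at least 1.2-fold, against 33.7% and 11.4% of all genes. Relative to genes of like length, 3 were higher and 2 lower by that limit, against 9.57% and 17.6%. Rps27a, which encodes ubiquitin fused to a ribosomal protein, had 30000 control counts and 16332 erythrodiol counts (log2 ratio -0.90), the lowest of this list. Nfe2l1 had 14452 and 17365 counts, a log2 ratio of 0.24 that was -0.01 relative to genes of like length. Ddi2, the protease that activates the factor of Nfe2l1, had 12490 and 17414 counts (log2 ratio 0.46). Ngly1, the glycanase that also acts on it, had 4742 and 4208 counts (log2 ratio -0.19). Relative to genes of like length, Ddi2 stood at 0.25, within the limit, and Ngly1 at -0.37, past it.

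The assembly of new transcripts touched few members. Coding transcripts absent from the reference had been added to 8 of the 50 members (16.0%), against 28.5% of the 17552 genes. Psma3 and Psma4 received 2 each, and Psmc1, Psmc5, Psmd4, Psmd5, Psmd11 and Psmf1 received 1 each. These transcripts entered the reference on which reads were counted, in both groups alike. Counts were whole in all but 5 members, Psma3, Psmb11, Psme2, Psme2b and Psmf1.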

How the data were processed

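Liver RNA of 7 control and 7 erythrodiol pools was sequenced; the labels gave each library its group and number. The authors mapped clean reads with Bowtie2 to reference transcripts merged with new coding transcripts (HISAT, StringTie, Cufflinks) and counted them with RSEM. The authors deposited expected counts per gene as sums over the libraries of a group, clean read counts per library, and the percent of reads mapped to genes. Versions are not given in the sources used here. The deposited fold changes, p-values and splicing comparisons of the authors were not used.

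Expected counts were scaled by the group total, and log2 ratios used a pseudocount of 0.5. Levels were divided by the deposited gene length. A test across genes was not possible without counts per library, so differences are descriptions. The limit of 1.2-fold is a size, not a test. Intervals are exact binomial at 95% on rounded counts, and those of the pair differences are normal approximations, all of counting error only. Genes of like length were the genes with at least 100 counts in 20 classes. Computations were tested on simulated data. The members and lists were chosen with earlier results of these data known. Named were all beta subunits, activators, the inhibitor, chaperones and non-subunits, and of other lists the genes of highest and lowest log2 ratio or level. Further genes were named after their values were seen. Genes at the upper end of 2 of these lists are not reported here. Gene positions and promoters are those of RefSeq on GRCm38.p6, the build of the deposited annotation. By gene identifier, positions were matched for 50 of 50 members and promoters for 42. Software was scipy 1.17.1, Python 3.11.15, matplotlib 3.10.9, numpy 2.4.6 with pandas 2.3.3.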

Additional observations from a re-analysis of the deposited data

Results flagged for a closer look

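In the control group, replicate 3 had 64.3% of its clean reads mapped to genes, a value whose distance from the nearest other control library was larger than Dixon's 95% limit for 7 values. It was the only such distance among 16 checked (4 measures of the libraries, both ends, both groups), and by chance about 1 in 20 groups shows one for a single measure. This library gave 9.12% of all gene-mapped read pairs of the control group. Its part in the control counts of the proteasome genes could not be computed from sums over libraries.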

How the results depend on the processing

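By the group totals, the median log2 ratio was -0.12 in the members, -0.39 in the constitutive 20S, -0.21 in the immune and 0.05 in the 19S genes, and immune minus constitutive catalytic genes gave 0.07. Centring on the median of all genes, which moves each log2 ratio by 0.16, gave -0.28, -0.55, -0.37 and, with the sign reversed, -0.11 for the 19S, with 1 member higher and 25 lower by 1.2-fold in place of 2 and 16. Scaling by the upper quartile gave -0.29, -0.56, -0.38 and, reversed, -0.12, with 1 higher and 25 lower. Totals without the 100 most abundant genes gave -0.23, -0.50, -0.31 and, reversed, -0.058, with 1 higher and 23 lower. Relative to 20 classes of like length, the constitutive 20S stood at -0.34, the immune genes at -0.16 and the 19S at 0.0040. Relative to the 500 genes nearest in length, the constitutive 20S stood at -0.32, the 19S, reversed, at -0.00072 and immune minus catalytic at 0.0029. Relative to genes of like length and level, an alternative chosen after seeing the data, the members stood at -0.073, the constitutive 20S at -0.23, the 19S, reversed, at -0.0096 and immune minus catalytic, reversed, at -0.089. A limit of 1.1-fold gave 10 higher and 23 lower members, and one of 1.5-fold gave 0 higher and 4 lower. Of 67 values compared, 37 stayed within the limits set, 24 moved and 6 reversed, and the cause was not tested. Of the 37, a pseudocount of 1, no minimum count and a minimum of 1000 counts gave 7 each. These settings act mainly on genes of low counts. Immune minus catalytic cannot change where all log2 ratios move by a constant. The number that stayed is therefore no measure of stability. No paired analysis was possible because the gene counts are sums over a group that carry no replicate numbers, and leaving out single libraries was not run for the same reason.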

Other observations

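The levels of the 14 constitutive 20S genes lay closer together in the erythrodiol group. Their coefficient of variation per kilobase was 34.1% in the control and 21.7% with erythrodiol, and the highest level was 3.23 and 2.53 times the lowest, respectively. In the 17 genes of the 19S, levels ran from 23.6 to 89.7 RPKM in the control and from 23.6 to 78.5 with erythrodiol. The control levels enter both the spread and the log2 ratios, and the values rest on 1 sum of libraries per group.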
